A study of Mus musculus with 24 samples.

Results

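The genes that write and read CpG methylation were followed in the colon and liver of mice on 2 high-fat diets. The 9 genes were found by their symbol among the 27962 gene names on the array: the methyltransferases Dnmt1, Dnmt3a and Dnmt3b, the catalytically inactive cofactor Dnmt3l, the Dnmt1 partner Uhrf1, and the methyl-CpG binding domain genes Mbd1, Mbd2, Mbd3 and Mbd4. They were measured by 15 probes, and the brightest probe of each gene over all arrays is called its main probe. Female C57BL/6 offspring came from mothers given a HF-Low diet (high in fat, low in selenium and folate) for 7 days before mating and on through gestation and lactation. From weaning at about 28 days until 12 weeks of age, 6 mice stayed on the low diet (HF-low-low) and 6 were moved to a high-fat feed in which both nutrients were sufficient (HF-low-suf). All 12 mice therefore shared the low maternal diet and the fat content of the feed, and the diets differed in both nutrients at once. Whole colon and whole liver of each mouse gave 24 arrays, 6 in each of 4 groups. Every array set the Cy3-labelled RNA of 1 tissue sample against a Cy5-labelled pool of colon and liver RNA, so each value is a log2 ratio to that pool and can be compared between arrays for 1 probe, but not between probes.

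In mammals, methyl groups are placed on new CpG sites mainly by Dnmt3a and Dnmt3b, with Dnmt3l as a cofactor in germ cells and early embryos. After DNA replication, Uhrf1 binds hemimethylated CpG sites and brings in Dnmt1, which restores the mark on the new strand. Mbd1 and Mbd2 bind methylated CpG and are linked to repression, Mbd3 is a subunit of the NuRD remodelling complex with little affinity for methylated CpG, and Mbd4 is a glycosylase that removes mismatched thymine at CpG sites. The colon epithelium renews itself without pause from dividing crypt cells, whereas few hepatocytes of an adult liver divide. Folate supplies one-carbon units for the methyl donor of these enzymes.

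To show what the main probes of 4 members detect, their bases are given as the array files list them, all in lower case. The Dnmt1 probe lies on the minus strand at chr9:20784085-20784453 and the Dnmt3a probe on the plus strand at chr12:3825243-3826024 (mouse build mm7 in the file headers). Both span more genome than their 60 bases, 369 and 782 bases respectively. The Mbd3 probe is at chr10:80183845-80183905 and the Mbd4 probe at chr6:115868170-115868229, both on the minus strand. Each of the 4 has at least 1 forward reading frame with no stop codon. So have the main probes of Dnmt3b and Dnmt3l, while that of Uhrf1 has none. In 60 bases an open frame does not show that a probe lies in coding sequence.
Dnmt1: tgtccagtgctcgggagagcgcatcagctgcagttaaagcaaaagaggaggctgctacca
Dnmt3a: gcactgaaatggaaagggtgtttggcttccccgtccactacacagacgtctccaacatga
Mbd3: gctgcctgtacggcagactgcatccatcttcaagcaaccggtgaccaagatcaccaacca
Mbd4: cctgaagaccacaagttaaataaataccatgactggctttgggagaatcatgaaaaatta

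The tissue labels were checked against marker genes. All 7 hepatocyte genes were higher in liver (median log2 difference 5.98), and all 7 colon epithelium genes (median -4.51) and all 5 smooth muscle genes (median -4.07) were lower there. The mean log2 ratio of the hepatocyte list ran from -4.74 to -4.20 on colon arrays and from 1.09 to 1.92 on liver arrays. Of the lymphocyte list 4 of 6 genes, and of the skeletal muscle list 3 of 6, were higher in liver, where 19.4% of all probes were, and 2 of 6 in each list with median centring. The Cy3 signal of 25.6% to 71.5% of probes, depending on the array, was well above background by the scanner software. On 3 liver arrays, HF-low-low replicate 6 and HF-low-suf replicates 4 and 5, the log2 ratios of all probes had an SD of 0.53 to 0.60, against 0.81 to 0.97 on the other 9 livers and 0.71 to 0.88 in colon. Without background correction the same 3 arrays had an SD of 0.76 to 0.86, inside the 0.74 to 0.89 of the other livers. The tissue, liver diet and liver relation results are therefore also given without these 3 arrays, a choice made after the values were seen.

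Of the 9 genes, 3 were lower in liver than in colon by their main probe, namely Uhrf1, Dnmt1 and Mbd2, and 1, Dnmt3b, was higher. The other 5 did not pass an adjusted P of 0.05. Over all 41174 probes, 38.3% passed in either direction, 19.0% lower and 19.4% higher in liver, so 4 of 9 is near the share of the whole array. Of the called probes 49.5% were lower in liver, but 67.1% with median centring and 61.2% with the signals processed by Feature Extraction, which moved the median of all probes to -0.19. The median of the 9 log2 differences was -0.01 and that of all probes 0.02. Adjusted P values here are from limma with Benjamini-Hochberg adjustment over all probes, each mouse being a random effect. In whole tissue, fewer cells of a type and less RNA per cell cannot be told apart.

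**Figure D1:**
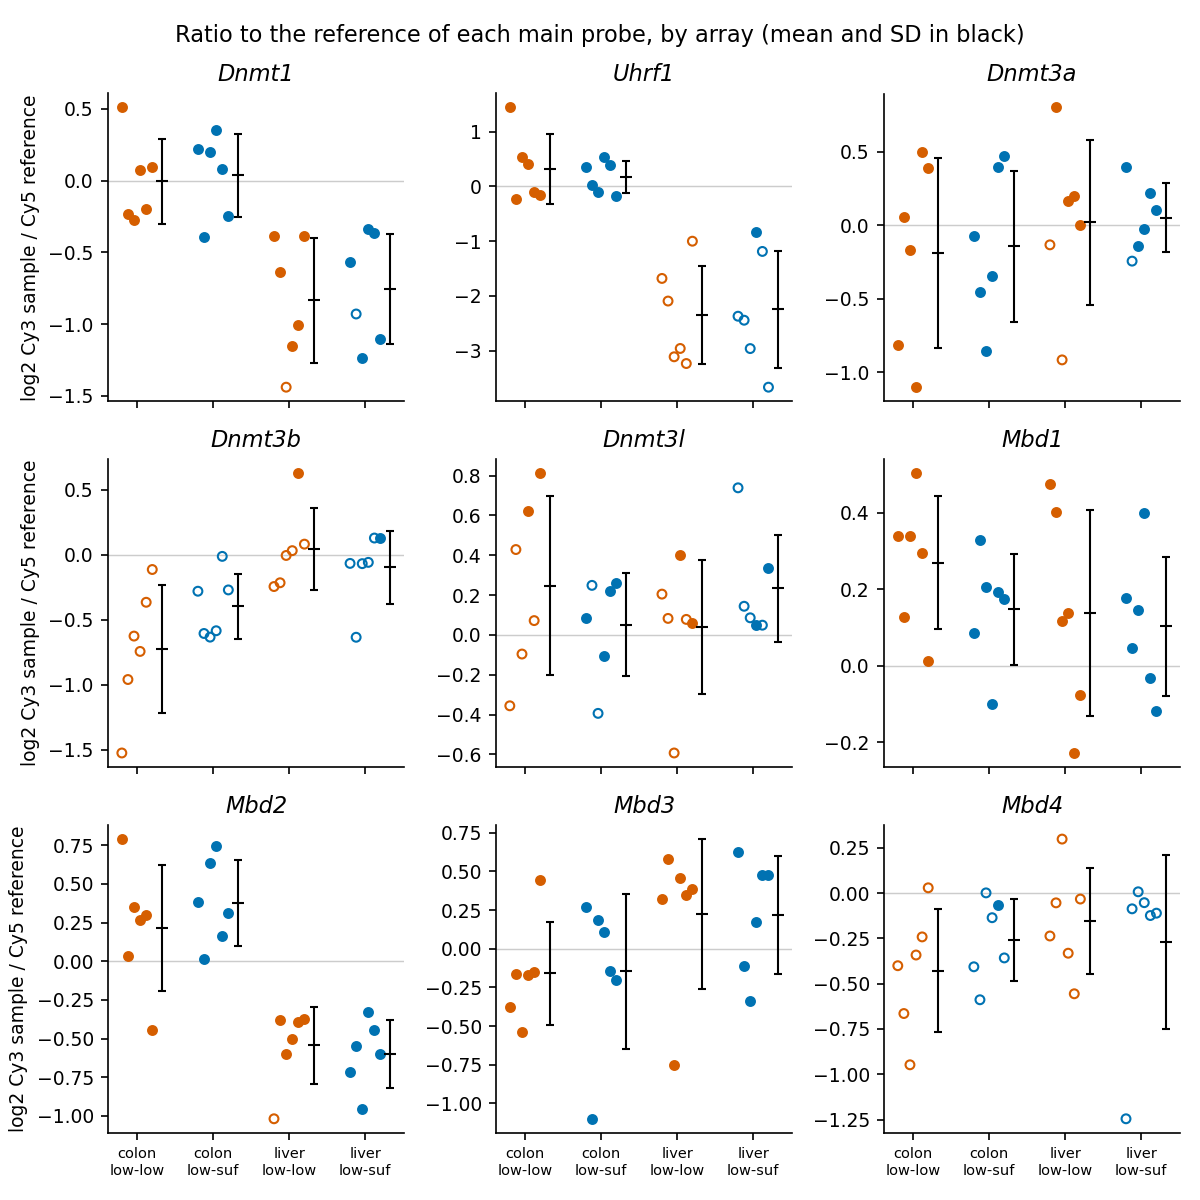
Log2 ratio of Cy3 sample to Cy5 reference for the main probe of each of the 9 genes, on 6 arrays of each of 4 groups (orange, HF-low-low; blue, HF-low-suf; black, mean and SD). Filled points were well above background in Cy3 and open points were not. The Uhrf1 points of liver lie between -3.67 and -0.83, below all colon points, which start at -0.22.

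Both maintenance genes were lower in liver. Uhrf1, the hemimethylated-CpG reader, had log2 ratios of -0.22 to 1.44 in colon (median 0.19) and of -3.67 to -0.83 in liver (median -2.41). No liver array reached the lowest colon array, and Uhrf1 was the only main probe whose tissues did not overlap, where 12.5% of all probes did not. The mean was 0.24 ± 0.48 in colon and -2.29 ± 0.94 in liver (SD, n = 12 each), a log2 difference of -2.54 (SE 0.26, limma adjusted P = 6.53e-09). Liver was lower in 12 of 12 mice, and the two-sided exact sign-flip test over mice gave 0.000488, the smallest P it can give. The probe was well above background on 12 of 12 colon arrays and on 1 of 12 liver arrays. The unnormalized Cy3 signal in liver was 0.85 to 1.83 times the median negative control, against 6.25 to 23.1 times in colon.

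Liver Uhrf1 was thus near the detection limit and its fold is best read as a bound. In the HF-low-low mice no liver array measured it. Each liver signal was raised, where lower, to the dimmest signal called well above background on its array. The colon mean was at least 5.63-fold higher than the mean of the liver signals so treated. The bounds were taken per channel after loess and Aquantile scaling and carry any dye bias, since dyes were not swapped. A second Uhrf1 probe was well above background on 12 colon and 0 liver arrays. Its ratio to the pool differed by -1.64 (SE 0.21, limma adjusted P = 2.04e-07), while in the Cy3 channel, with log2 means of 10.49 in colon and 8.77 in liver, the bound was at least 3.24-fold. On the 3 liver arrays with narrow ratios, the main probe read -1.19 to -0.83, against -3.67 to -1.68 on the other 9. Without these arrays the log2 difference of the main probe was -2.98 (limma adjusted P = 1.30e-11).

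Dnmt1, the maintenance methyltransferase, had log2 ratios of -0.39 to 0.51 in colon (median 0.08) and of -1.44 to -0.34 in liver (median -0.78). The tissues met at their edges, although liver was lower than colon in each of 12 mice. The log2 difference was -0.81 (SE 0.13, limma adjusted P = 6.41e-06), or 1.75-fold, and the two-sided exact sign-flip test gave 0.000488. The probe was well above background on 12 colon and 10 liver arrays, and on those 10 livers its unnormalized Cy3 signal was 1.91 to 3.56 times the negative controls. Without the 3 narrow arrays the difference was -0.95 (limma adjusted P = 1.56e-06). Within the scan batches it was -0.87 (replicates 1 to 3) and -0.75 (replicates 4 to 6), and that of Uhrf1 was -2.78 and -2.30.

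**Figure D2:**
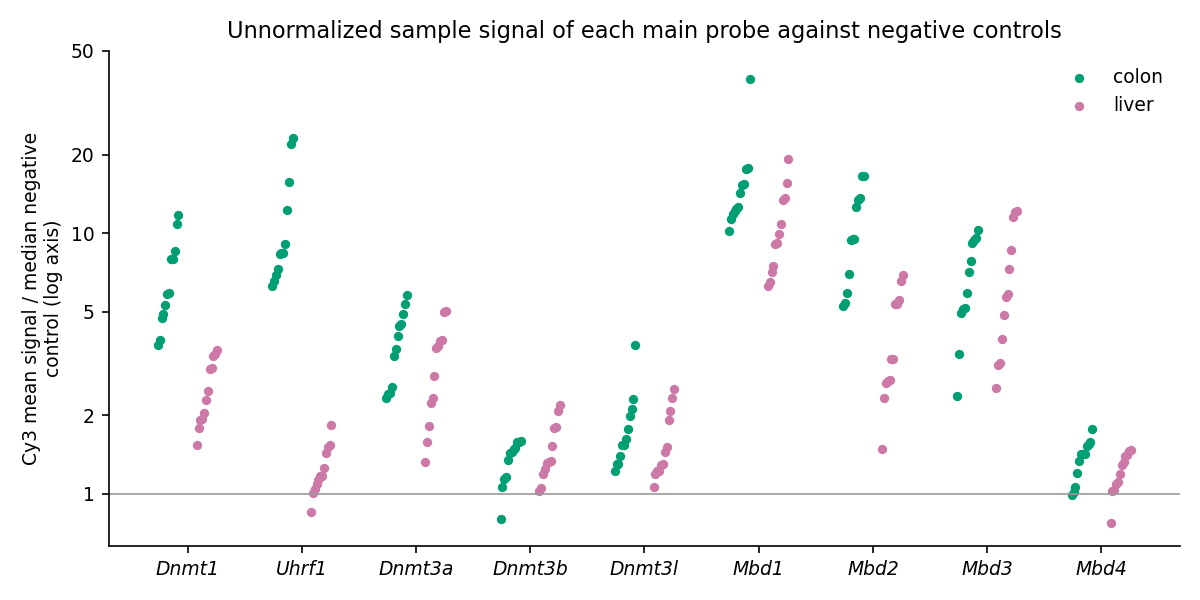
Unnormalized Cy3 mean signal of each main probe divided by the median negative control of its array, on a log axis, for 12 colon (green) and 12 liver (pink) arrays, sorted by value. Uhrf1 in liver and Dnmt3b and Mbd4 in both tissues stay below 2.2 times the negative controls.

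Of the de novo genes, Dnmt3a did not differ between tissues by its main probe. Its log2 ratios ran from -1.10 to 0.50 in colon and from -0.92 to 0.80 in liver, and the difference was 0.20 (SE 0.18, limma adjusted P = 0.437). The other probes of Dnmt3a differed from each other. One read -0.15 (limma adjusted P = 0.408), and one, well above background on 2 colon and 5 liver arrays, read 0.50 (SE 0.12, limma adjusted P = 0.00175), higher in liver in 11 of 12 mice. With median centring in place of loess the main probe turned to -0.13.

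Dnmt3b, the other de novo enzyme, was close to background throughout. Its log2 ratios were -1.53 to -0.01 in colon and -0.64 to 0.63 in liver, higher in liver in 11 of 12 mice (difference 0.54, SE 0.12, limma adjusted P = 0.000814). The probe was well above background on 0 of 12 colon and 2 of 12 liver arrays, so the difference is mostly one of signals near background and no fold is given. From the Cy3 channel alone the difference was 0.28 (limma adjusted P = 0.0564). Dnmt3l was well above background on 6 colon and 4 liver arrays, with ratios of -0.39 to 0.81 and of -0.59 to 0.74, and a difference of -0.01 (SE 0.12, limma adjusted P = 0.956). Without the 3 narrow arrays the difference was 0.21 for Dnmt3a, 0.51 for Dnmt3b (limma adjusted P = 0.00512) and 0.04 for Dnmt3l.

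**Figure D3:**
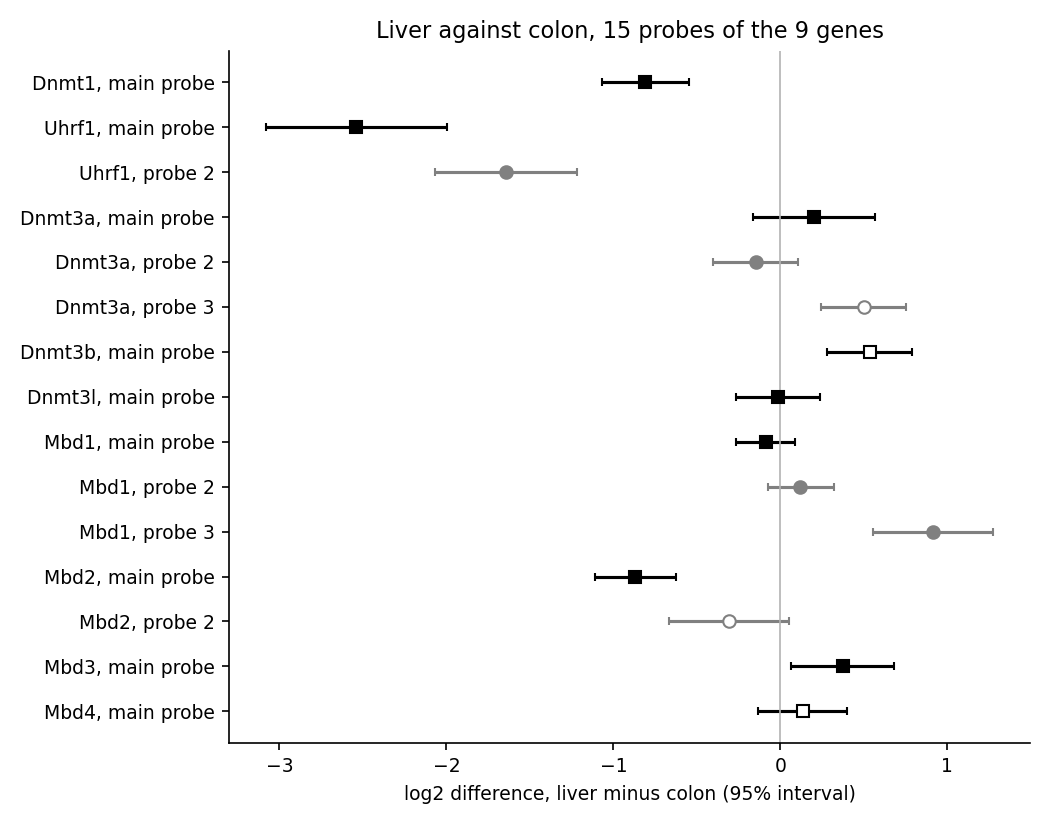
Log2 difference between liver and colon (negative is lower in liver) with its 95% interval for each of the 15 probes. Black squares are main probes, grey circles other probes of the gene in order of brightness, and white symbols probes well above background on fewer than 6 of 12 arrays in both tissues. Probes of Dnmt3a and of Mbd1 lie on both sides of 0.

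Among the readers, Mbd2 was lower in liver. Its main probe had log2 ratios of -0.44 to 0.79 in colon (median 0.31) and of -1.02 to -0.33 in liver (median -0.53), with 1 colon array among the livers. Liver was lower in 11 of 12 mice, by -0.87 on the log2 scale (SE 0.12, limma adjusted P = 6.02e-07), or 1.83-fold. The two-sided exact sign-flip test over the mice gave 0.000977. The probe was well above background on 12 colon and 11 liver arrays, and without the 3 narrow arrays the difference was -0.95 (limma adjusted P = 1.70e-06). A second Mbd2 probe was not well above background on any array and gives no fold.

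Mbd1 had similar ratios in the 2 tissues by its main probe, -0.10 to 0.50 in colon and -0.23 to 0.47 in liver, on 24 of 24 arrays well above background. The difference was -0.09 (95% interval -0.27 to 0.09, limma adjusted P = 0.495). A probe designed on a cDNA that is not a RefSeq mRNA, well above background on 2 colon and 6 liver arrays, was higher in liver by 0.91 (SE 0.18, limma adjusted P = 0.000107), in each of the 11 mice with a value for both tissues. A further probe read 0.12 (limma adjusted P = 0.384). With median centring the main probe passed, at -0.51 (limma adjusted P = 0.000627).

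Mbd3, measured on all 24 arrays, had ratios of -1.10 to 0.45 in colon (median -0.16) and of -0.75 to 0.63 in liver (median 0.37). The difference of 0.37 (SE 0.15) just missed the threshold (limma adjusted P = 0.0527), and 9 of 12 mice were higher in liver. It passed with no background correction (0.40, adjusted P = 0.0274) or the mouse as a fixed block (adjusted P = 0.0345), and turned to -0.045 with median centring. Mbd4 was well above background on 1 colon and 0 liver arrays, and its difference of 0.13 (SE 0.13, limma adjusted P = 0.493) compares signals near background. Without the 3 narrow arrays the difference was 0.35 for Mbd3 (limma adjusted P = 0.132), -0.10 for Mbd1 and 0.09 for Mbd4.

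Genes that work with the 9 were counted from fixed lists. Of 6 genes listed as partners or relatives of Dnmt1, 4 were lower in liver, where 19.0% of all probes were. They included Pcna, the replication clamp that binds Dnmt1 (log2 difference -1.28), and the chromatin remodeller Hells (mean log2 ratio 0.02 in colon and -0.98 in liver). The others were the histone methyltransferase Ezh2 (log2 difference -1.23) and the deubiquitinase Usp7 (-0.52). The relative in the list, Trdmt1, was not called (-0.14). Hells was well above background on 11 colon and 0 liver arrays, and Ezh2 on 12 colon and 4 liver arrays. The gene that was higher was Dmap1 (0.33), named here after its value was seen, and with median centring 5 were lower and 0 higher. The median of the list was -0.76, beside 0.02 for all probes.

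Of 8 other genes for methyl-DNA binding proteins and their relatives, 3 were lower in liver and 0 higher, near the 38.3% called among all probes, with a median of -0.04. Zbtb4 was lower by a log2 difference of -1.14, the Uhrf1 relative Uhrf2 by -0.42 and Mbd6 by -0.28. Of 11 NuRD genes, to which Mbd2 and Mbd3 belong as alternative subunits, 4 were lower and 1 was higher (median -0.15), near the 38.3% called among all probes. The deacetylase Hdac1 differed by -1.63, Rbbp7 by -0.65, Mta2 by -0.38 and the higher gene, Gatad2a, by 0.33. With median centring 5 were lower and 0 higher.

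Of 8 demethylation and repair genes found, 3 were lower and 1 was higher, near the 38.3% called among all probes, with a median of 0.01. Tet1, which oxidises methylcytosine and is listed on the array as Cxxc6, was higher in liver by 1.84, and the glycosylase Tdg was lower by a log2 difference of -0.45. Gadd45a differed by -1.18 and Gadd45b by -1.09. No probe carried the names Tet2 or Tet3. With median centring 4 were lower and 2 higher.

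Most of the proliferation list was lower in liver, as were the maintenance genes and every gene of the colon epithelium and smooth muscle lists. Of its 15 genes 12 were lower, where 19.0% of all probes were, and 0 higher, with a median of -1.20. Rrm2, named here after its value was seen, leaned the other way (0.38, limma adjusted P = 0.0897). Mki67 differed by -2.77, the replicative helicase subunit Mcm6 by -2.62, Birc5 by -2.31 and the cyclin Ccna2, well above background on 4 liver arrays, by -1.70. The mean of the 15 ratios ran from -1.03 to -0.18 on colon arrays and from -2.54 to -1.13 on liver arrays, where 3 of the 15 genes were not well above background on any array. Its part in the Dnmt1 and Uhrf1 differences was not tested.

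Whether the maintenance genes follow proliferation among mice was asked within each tissue, in 6 relations. In liver Uhrf1 was well above background on 1 of 12 arrays, so its relations there are between signals mostly near background, and the part of array background in them was not tested. Its ratio and the proliferation mean had, over 12 mice, r = 0.948 (Pearson, permutation P = 1e-05, the smallest these permutations give, adjusted over the 6 relations 6e-05; Spearman rho = 0.916, permutation P = 0.00012, adjusted 0.00072). The 3 arrays with narrow ratios formed a group apart, with proliferation means of -1.26 to -1.13 against -2.54 to -1.63. This was not particular to proliferation. The colon epithelium mean was -3.072 to -2.755 there against -4.131 to -3.443, and the smooth muscle mean -2.661 to -2.229 against -3.955 to -2.52. Relations of Uhrf1 to those lists were not tested. Among the other 9 livers Pearson r of Uhrf1 with the proliferation mean was 0.853 (permutation P = 0.00402) and Spearman rho 0.817 (permutation P = 0.0109). Within HF-low-low livers r was 0.928 (n = 6, exact permutation P = 0.0125) and within HF-low-suf livers 0.963 (n = 6, exact permutation P = 0.00417). Within the scan batches r was 0.687 and 0.990 (n = 6 each), and without the 2 mice farthest from the median Uhrf1 it was 0.915. In Cy3 alone r was 0.647 (permutation P = 0.0234, adjusted 0.0703), and none of the 6 relations passed.

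Dnmt1 and Uhrf1 were related in liver with r = 0.892 (permutation P = 0.00022, adjusted 0.00066; rho = 0.881, permutation P = 0.00039, adjusted 0.00117), and r was 0.819 among the 9 (permutation P = 0.00743). Within the diets r was 0.903 (n = 6, exact permutation P = 0.0264) and 0.901 (n = 6, exact permutation P = 0.0181), within the scan batches 0.953 and 0.970, and without the 2 farthest mice 0.926. Dnmt1 and the proliferation mean had r = 0.817 (permutation P = 0.00227, adjusted 0.00454; rho = 0.762, permutation P = 0.0057, adjusted 0.0114), and r = 0.637 among the 9 livers (permutation P = 0.0691). Within the diets that r was 0.721 (n = 6, exact permutation P = 0.118) and 0.929 (n = 6, exact permutation P = 0.0208), within the scan batches 0.717 and 0.966, and without the 2 farthest mice 0.929. With the signals processed by Feature Extraction, r of Dnmt1 in liver was 0.302 with Uhrf1 and 0.194 with the proliferation mean, and in Cy3 alone 0.669 and 0.369, so these 2 relations did not pass under either processing.

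In colon both genes were well above background on every array. Dnmt1 with Uhrf1 had r = 0.633 (permutation P = 0.0213, adjusted 0.0319) and rho = 0.378 (permutation P = 0.226, adjusted 0.256), and r was 0.378 without the 2 mice farthest from the median Dnmt1 and 0.384 without HF-low-low replicate 1 alone. The relation over all 12 mice rests on those samples, and its call was also lost without HF-low-low replicate 2 (permutation, adjusted P = 0.0679), HF-low-low replicate 5 (0.0597) or HF-low-suf replicate 6 (0.0692). Within the diets that r was 0.719 (n = 6, exact permutation P = 0.129) and 0.642 (n = 6, exact permutation P = 0.214), and within the scan batches 0.621 and 0.765. Dnmt1 with the proliferation mean had r = 0.575 (permutation P = 0.0524, adjusted 0.0629) and rho = 0.427 (permutation P = 0.168, adjusted 0.252). Its r was 0.736 and 0.416 within the diets, 0.702 and 0.447 within the scan batches, and 0.569 without the 2 farthest mice, and it passed without HF-low-suf replicate 2 (permutation, adjusted P = 0.0415) or replicate 4 (0.0365). Uhrf1 with that mean had r = 0.469 (permutation P = 0.124, adjusted 0.124) and rho = 0.357 (permutation P = 0.256, adjusted 0.256), with 0.485 and 0.555 within the diets, 0.346 and 0.684 within the scan batches, and 0.348 without the 2 farthest mice, and it passed without HF-low-low replicate 3 (permutation, adjusted P = 0.0443).

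**Figure D4:**
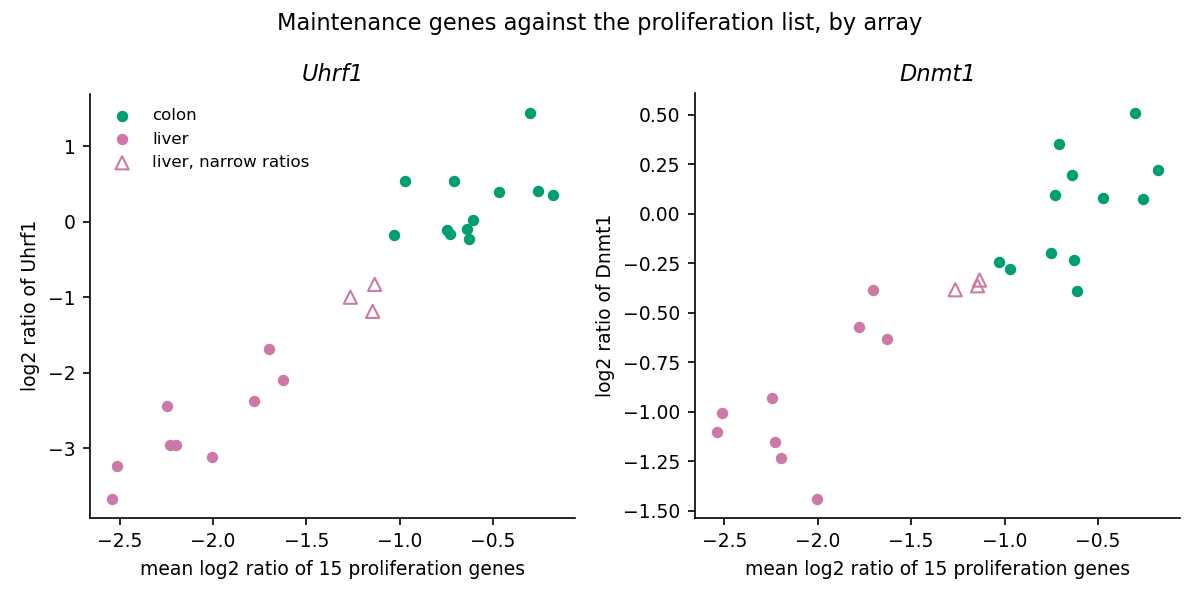
Log2 ratio of Uhrf1 (left) and Dnmt1 (right) against the mean log2 ratio of 15 proliferation genes, 1 point per array (green, colon; pink, liver; open triangles, the 3 livers with narrow ratios). The triangles lie between the other livers and the colons, at proliferation means of -1.26 to -1.13.

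The diet comparison asked whether sufficient selenium and folate after weaning changed the RNA of these genes. No member passed the study's limits for diet, an unadjusted limma P under 0.01 and a fold above 1.5, in colon, where 0.168% of all probes did, or in liver, where 0.117% did. No member had P below 0.05 in either tissue, where 2.98% of probes had in colon and 2.13% in liver. After Benjamini-Hochberg adjustment limma called 0% of probes in colon and 0% in liver. Of the members well above background on at least 6 arrays of the tissue, the interval of the difference lay within a 1.5-fold change for 4 of 7 in colon and for 5 of 5 in liver.

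Uhrf1 had median log2 ratios of 0.15 on HF-low-low and 0.19 on HF-low-suf in colon, and of -2.53 and -2.41 in liver. The differences, HF-low-suf minus HF-low-low, were -0.15 in colon (95% interval -0.68 to 0.39) and 0.10 in liver (-0.95 to 1.15). The liver interval is the widest of the 18, and a 2-sided exact permutation of the 12 mice gave P = 0.862. Without the 3 narrow arrays the liver difference was -0.25, the opposite sign (SE 0.37). Dnmt1 differed by 0.04 in colon (95% interval -0.32 to 0.41) and by 0.08 in liver (-0.40 to 0.55), or -0.03 there without the narrow arrays. The other members kept their sign in liver without them, with differences of -0.20 (Dnmt3b) to 0.29 (Dnmt3l).

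Dnmt3a, measured on 12 colon and 9 liver arrays, differed by 0.05 in colon (95% interval -0.56 to 0.66) and by 0.03 in liver (-0.46 to 0.52). Dnmt3b had the smallest P of the 9 in colon. Its ratios there ran from -1.53 to -0.12 on HF-low-low and from -0.64 to -0.01 on HF-low-suf, overlapping groups, with a difference of 0.32 (95% interval -0.12 to 0.76, limma P = 0.137, exact permutation P = 0.195), on arrays where the probe was never well above background. Without HF-low-low replicate 6 it was 0.45, with an unadjusted limma P under 0.05. In liver it was -0.14 (-0.51 to 0.23). Dnmt3l differed by -0.20 in colon (-0.62 to 0.22) and by 0.20 in liver (-0.18 to 0.57).

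Among the readers, Mbd1 differed by -0.12 in colon (95% interval -0.40 to 0.15) and by -0.04 in liver (-0.35 to 0.28), Mbd2 by 0.16 (-0.25 to 0.56) and -0.06 (-0.37 to 0.26), and Mbd3 by 0.01 (-0.46 to 0.48) and -0.01 (-0.50 to 0.49). Mbd4, at background, differed by 0.17 in colon and -0.12 in liver, and in colon by 0.56 with the signals processed by Feature Extraction, with an unadjusted limma P under 0.05. Among the listed partners, NuRD, demethylation, methyl-DNA binding and proliferation genes, 0 passed the diet threshold in either tissue.

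The diet effect in liver was set against that in colon in the fit of all 24 arrays. The largest difference among the members was that of Dnmt3b, -0.47 (SE 0.25, adjusted P = 0.799 by limma). No member had an unadjusted limma P under 0.05, where 6.43% of all probes had. After adjustment limma called 0% of probes.

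**Figure D5:**
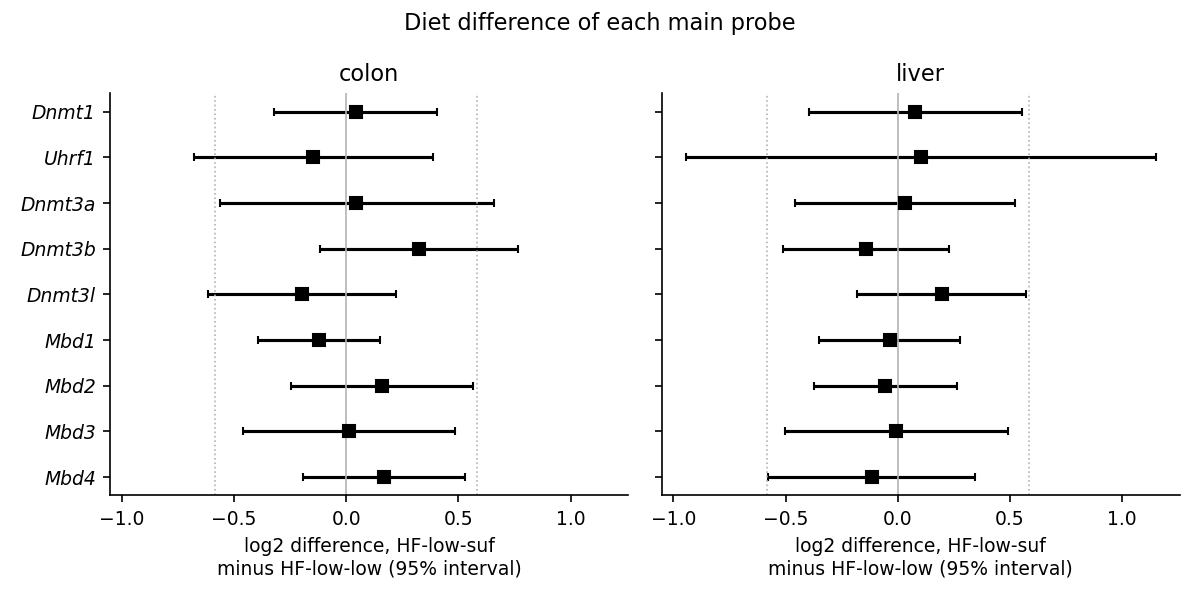
Log2 difference between diets (HF-low-suf minus HF-low-low) with its 95% interval for the main probe of each gene in colon and in liver, n = 6 per diet. Dotted lines mark a 1.5-fold change (0.585 on the log2 scale) and every interval includes 0.

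For each of the 6 members well above background on at least 12 arrays, the genes with the most similar deviations from the 4 group means over 24 arrays were listed. For Uhrf1 they were Cyp51 (r = 0.947), Wdhd1 (0.928) and Slc28a2 (0.920), and for Dnmt1 Mast2 (0.902), Dbn1 (0.898) and Vil1 (0.894). For Dnmt3a they were Zfp469 (0.900), Zbtb7a (0.899) and Ckap5 (0.881), for Mbd1 Cebpb (0.810), Polm and Pot1 (both 0.776), for Mbd2 Vbp1 (0.881), Ybx1 (0.879) and Casp6 (0.877), and for Mbd3 Tarsl1 (0.955), Cdk4 (0.944) and Slc25a1 (0.937). The arrays share a reference pool, slides and background correction, and these values are a description picked as the highest of 13153 probes. Uhrf1 met the limit of 12 arrays through colon, and 11 of its 12 liver values are not well above background. A comparison on fewer arrays was added after the values were seen. Without the 3 narrow liver arrays, r of Uhrf1 was 0.896 with Cyp51, 0.847 with Wdhd1 and 0.831 with Slc28a2. Over the 12 colon arrays alone it was 0.878, 0.766 and 0.697, where 3 other genes (Herc4, Sav1 and Hnrpm, 0.931 to 0.935) ranked first. In those colon arrays Mbd1 with Cebpb fell to 0.543 and Dnmt1 with Dbn1 to 0.74. Dnmt1 with Vil1 rose to 0.971 and Dnmt3a with Zfp469 to 0.966.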

How the data were processed

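Total RNA of whole colon and liver was hybridised by the authors to 60-mer Agilent mouse arrays, with the sample in Cy3, a pool of colon and liver RNA in Cy5 and no dye swap. The files deposited by the authors are Feature Extraction 9.5 scanner output with an intensity and local background per spot, not yet normalized. The authors normalized by loess in limma, which the submitters' processing notes name without a version. Here, intensities were background-corrected by normexp (offset 50) and normalized by loess within arrays (R 4.3.3, limma 3.58.1, statmod 1.5.0). Control spots and outlier flags had no weight, and spots of 1 probe were averaged, leaving 41174 probes. Values are log2 of Cy3 over Cy5.

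Tissues, and the diet effect between tissues, were compared over 24 arrays with the mouse, which the labels give for both tissues, as a random effect (correlation 0.158). Diets were compared over the 12 arrays of a tissue. Calls were an adjusted P below 0.05, and for diet, after the study, P below 0.01 with a fold above 1.5. Single genes were tested by exact sign flips of 12 mice (4096) or exact permutation of diets (924), relations by 100000 permutations. The fits were checked on simulated data. The number of arrays limits the precision. Replicates correlated at 0.65 to 0.94 and 0% of their signals were identical.

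The 9 genes and all lists were chosen with earlier results of these data known. Named are all probes of the 9 genes, up to 4 genes per list (Pcna, Hells and Tet2 among those named first, then the largest tissue differences) and the 3 most similar genes. An item that the rule names is not reported here. Of 15 probes, 13 carry a RefSeq mRNA accession, and all 13 matched the same symbol in RefSeq. Alternatives were other background corrections, scalings, filters, blocks and probes, each scan batch, and leaving out each mouse.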

Additional observations from a re-analysis of the deposited data

Results flagged for a closer look

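Over 36 groups of 6 arrays (9 main probes in 4 groups), 7 held 1 array far from the other 5 by Dixon's ratio of the gap to the range, and chance flags about 1 in 20 groups. Of all probes and groups on these arrays, 8.26% were apart by the same ratio. Mbd3 read -1.10 on colon HF-low-suf replicate 2, where the others ran from -0.20 to 0.27, and -0.75 on liver HF-low-low replicate 3, where the others ran from 0.32 to 0.58. Mbd2 read -1.02 on liver HF-low-low replicate 1, the only liver array where it was not well above background. Dnmt3b read 0.63 on liver HF-low-low replicate 5 and -0.64 on liver HF-low-suf replicate 2. Dnmt3l read -0.59 on liver HF-low-low replicate 3, and Mbd4 -1.25 on liver HF-low-suf replicate 1, both on arrays where the probe was not well above background.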

How the results depend on the processing

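Between tissues, 4 or 5 members were called under each alternative run, and 0 for diet or for the difference of diet effects. Over 27 alternatives each with the main probe, the log2 difference was -4.57 to -2.30 for Uhrf1, -1.16 to -0.75 for Dnmt1 and -1.25 to -0.67 for Mbd2, all called (Aquantile scaling, 1 of the 27, cannot change a log ratio). The filter on dim probes and the changes of block left these differences unchanged and bear on the calls alone. The second Uhrf1 probe read -1.64, called. The second Mbd2 probe was not well above background on any array and tests nothing. Dnmt3b was called in 25 of 26 (0.28 to 0.88), but not in Cy3 alone. Mbd3 passed in 9 of 27. Differences whose sign turned with a call or by more than 1 SE were, between tissues, for Mbd4, -0.20 with Feature Extraction signals, -0.033 in Cy3 alone and -0.015 in the second scan batch; with median centring, Dnmt3a -0.13 and Mbd3 -0.045; in the first scan batch, Dnmt3l 0.13; and with other probes, Dnmt3a -0.15 and Mbd1 0.12 and 0.91. For diet in colon they were Mbd1 0.04 with median centring and 0.10 with another probe, Mbd2 -0.046 in the first scan batch, and Uhrf1 0.20 and Mbd4 -0.002 in the second. In liver they were Dnmt3l -0.036, Mbd1 0.14 and Mbd4 0.21 in the second scan batch, and Mbd2 0.15 with that background-level probe. The cause was not tested. Smaller turns of differences near 0 left the sign as reported in 16 of 27 alternatives for Dnmt3l between tissues, in 19 of 26 for Mbd3 and 20 of 26 for Dnmt3a for diet in colon, and in 12 of 26 for Mbd3, 16 of 25 for Uhrf1 (-0.30 to 0.50) and 17 of 25 for Dnmt1 in liver. Of 6 relations, 4 passed, against 1 with Feature Extraction signals, 6 with median centring and 0 in Cy3 alone.

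Arrays with 1 replicate number carry the same scan time in the file headers, which was taken as 1 slide, and share a scan batch. Same-slide arrays of the 2 diets deviated together (r over 0.1) in 3 of 6 pairs in colon and 2 of 6 in liver. That r ran from -0.085 to 0.238 in colon and from -0.5 to 0.528 in liver. The replicate number was therefore not taken as a pairing of mice. With the replicate block 4 members were called between tissues (Uhrf1 -2.54, limma adjusted P = 3.75e-07) and 0 for diet. Signal over background limits Dnmt3b, Dnmt3l and Mbd4 in both tissues and Uhrf1 in liver.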
